A study of Mus musculus with 31 samples.

Results

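The 43 genes described here encode secreted proteins of the extracellular matrix other than collagens and laminins: adhesive glycoproteins, elastic fibre proteins, latent TGF-beta binding proteins, lysyl oxidases, proteoglycans and basement membrane linkers. They were chosen by symbol, and a member had to reach 10 counts in at least 5 samples. All 43 of 43 listed genes met this minimum among the 23509 genes in the files, and all 43 were among the 15185 genes tested. Kidney mRNA was sequenced from 31 mice at 30 weeks of age in 3 groups. The PBS group held 12 Pcy/CD1 mice given PBS under the skin from 5 to 30 weeks of age. Pcy/CD1 mice carry the spontaneous pcy mutation on the CD1 background and develop slowly growing cysts. The RGLS4326 group held 14 Pcy/CD1 mice given 25 mg per kg of RGLS4326 monthly from 5 to 30 weeks of age, over 25 weeks. The wild-type group held 5 untreated male CD1 mice of the same age, and the study describes its dosed Pcy/CD1 mice as male too. RGLS4326 is a short chemically modified oligonucleotide that binds the seed of the miR-17 family and blocks it. PBS was given weekly by the sample labels, whereas the protocol text reads as monthly, and the wild-type mice received no injection, so the schedule of injections cannot be told apart from the groups. Mice given a control oligonucleotide were not analysed here, and each kidney is 1 animal.

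The matrix of the kidney surrounds tubules, vessels and glomeruli and is made largely by fibroblasts, mesangial cells and the epithelium itself. Fibronectin, tenascin, periostin, SPARC and the thrombospondins connect cells to the matrix and are known to accumulate in scarring. Fibrillins, fibulins, EMILINs and microfibril-associated proteins build the elastic fibre on which elastin is laid down, latent TGF-beta binding proteins hold the inactive growth factor in this scaffold, and lysyl oxidases crosslink elastin and collagen. Small leucine-rich proteoglycans such as decorin regulate the growth of collagen fibrils, while perlecan, agrin and the nidogens belong to the basement membrane. Interstitial fibrosis is a known feature of polycystic kidneys.

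RGLS4326 acts on the seed shared by the miR-17 family, so the mature sequences are shown first, as RNA from 5′ to 3′ with the seed (bases 2 to 8) in capitals. They were taken from RefSeq on GRCm38.p6.
mmu-miR-17-5p, chr14:115043684-115043706, plus strand: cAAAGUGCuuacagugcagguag
mmu-miR-20a-5p, chr14:115044183-115044205, plus strand: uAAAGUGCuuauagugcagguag
mmu-miR-93-5p, chr5:138165574-138165596, minus strand: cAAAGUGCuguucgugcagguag
mmu-miR-106a-5p, chrX:52742541-52742563, minus strand: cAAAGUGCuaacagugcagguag
mmu-miR-106b-5p, chr5:138165787-138165807, minus strand: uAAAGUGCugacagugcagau
mmu-miR-20b-5p, chrX:52742159-52742181, minus strand: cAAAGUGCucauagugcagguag
All 6 share 1 seed, whose match in an mRNA reads GCACTTT.

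A match to it, on the sense strand of the longest annotated 3′UTR of GENCODE vM21, was present in 2 of 43 members (4.65%), against 1934 of 13832 tested genes with a 3′UTR (14%). The median 3′UTR was 992 bases long among the members and 1145 bases among those genes. The members with a match were Megf6, which encodes a secreted protein with EGF-like repeats, and Thbs2, which encodes the matricellular glycoprotein thrombospondin 2. The matches are shown with flanking bases as DNA of the sense strand, with the match in capitals.
Megf6, match at chr4:154273958-154273964 (GRCm38, plus strand, exon 37 of 37): agatagaggtgGCACTTTtggatccacac
Thbs2, match at chr17:14666583-14666589 (GRCm38, minus strand, exon 22 of 22): agttggcagatGCACTTTggtaccctgtt
Thbs2, match at chr17:14665865-14665871 (GRCm38, minus strand, exon 22 of 22): cttgttatcctGCACTTTttagatttttg
A match is a description of the sequence only. The remaining members had no GCACTTT in the 3′UTR searched, and the direction of Megf6 and Thbs2 after treatment is given with their roles.

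Counts on genes numbered 19449688 to 20733811 per wild-type mouse, 16519885 to 25582754 with PBS and 14892524 to 27459962 with RGLS4326. Levels are given as CPM, the count of a gene relative to the library size scaled by edgeR's TMM factors, and differences as log2 fold changes with the standard error (SE) of the fit. Numbers in the deposited library names fall into 3 index series. These held 4, 4 and 4 mice with PBS, 4, 5 and 5 with RGLS4326 and 2, 2 and 1 wild-type mice. They were handled as possible batches. Whether mice of different groups in a series were processed together is not given in the sources used here. RGLS4326-treated mouse 9 stood apart. On the first principal component of all genes tested it lay at 55, beside wild-type mice at 59.6 to 67.1 and away from the other treated mice at −33.5 to 15.4. Since its kidney carried the lowest treated level of 28 of the 43 members, the treatment log2 fold changes below are followed by their value without it for every gene described by mouse. Exons of 17 members overlap a gene on the opposite strand (Thbs1 with Gm29233 and Mfap4 with Mapk7 among them), and those of Loxl2 and Pcolce a gene on the same strand, so reads may be shared there. The kidney label held in every group: proximal tubule markers summed to between 19900 and 67000 CPM in every mouse. Much of this sum was Kap, at means of 40900, 22400 and 28600 CPM (wild type, PBS, RGLS4326) beside 58100, 30200 and 38400 CPM.

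**Figure D1:**
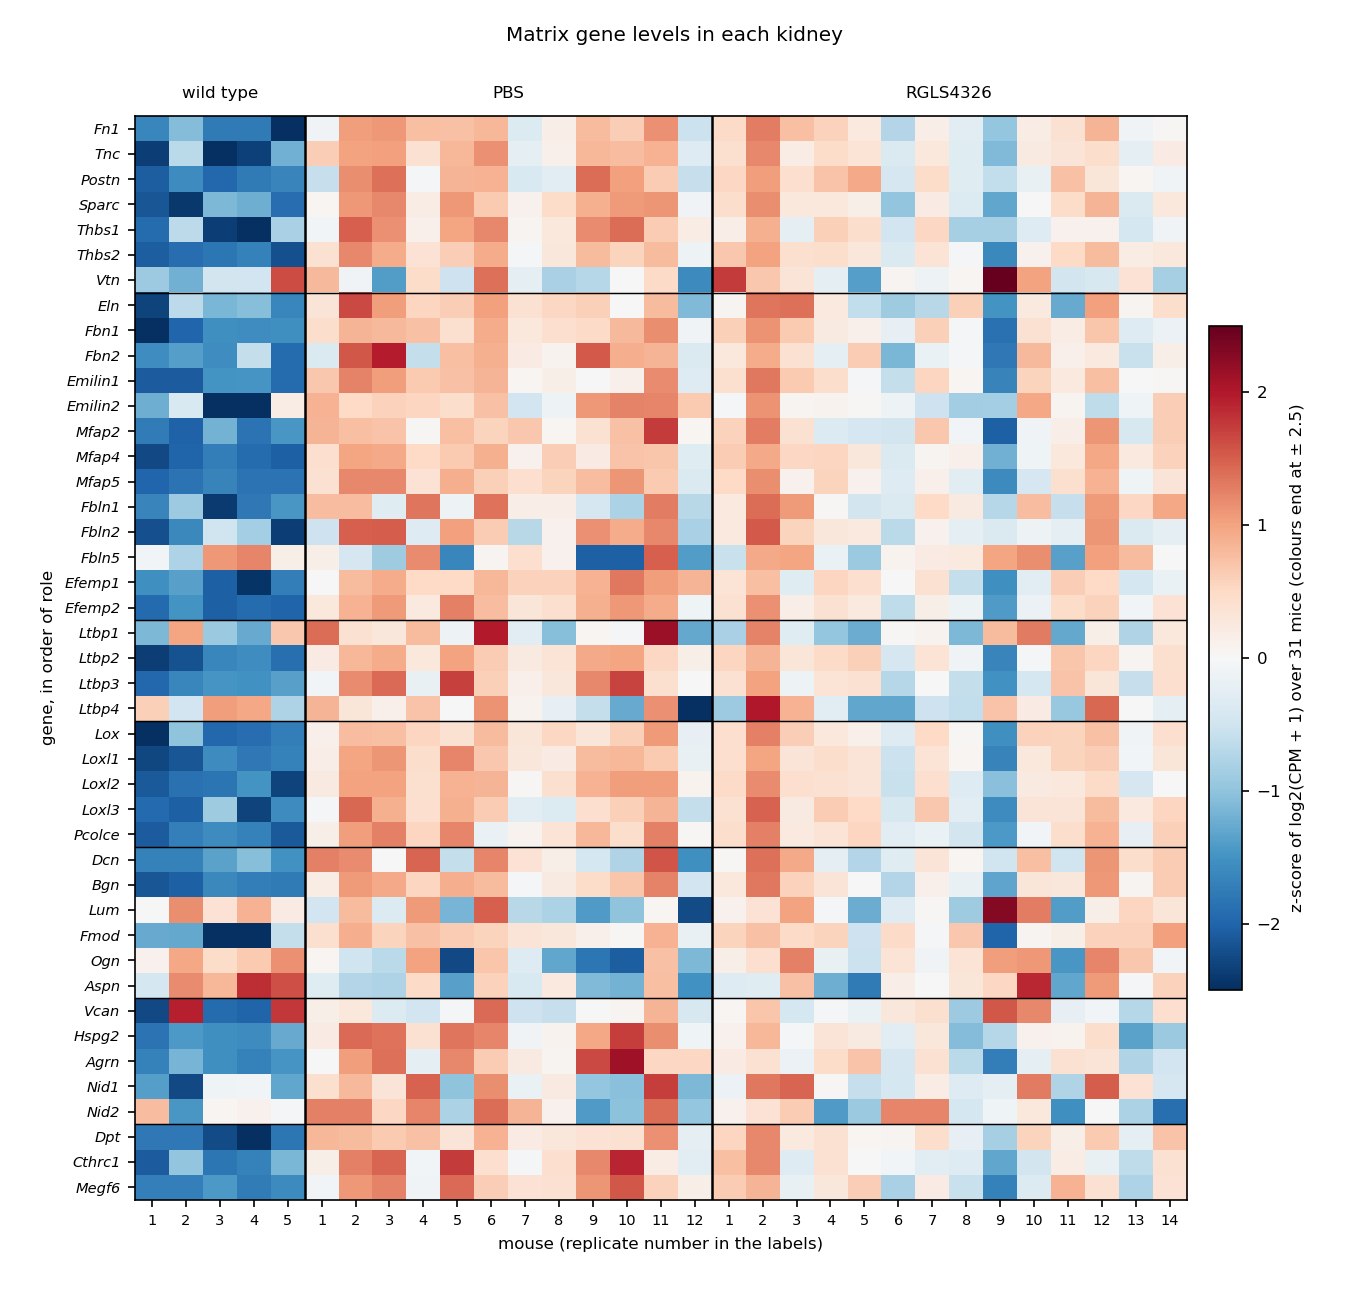
Each row is 1 of the 43 matrix genes in order of role and each column is 1 of 31 kidneys; colour gives the z-score of log2(CPM + 1) over all mice, ending at ± 2.5. Most rows are low in the 5 wild-type mice and high with PBS and RGLS4326, apart from a few such as Ogn, Aspn, Fbln5 and Lum, and RGLS4326-treated mouse 9 is the lowest treated mouse in 28 rows.

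Matrix genes were broadly higher in cystic kidneys than in wild type. Summed over the 43 members, wild-type mice read 1060 to 1230 CPM (median 1190), PBS-treated mice 1930 to 3130 CPM (median 2830) and RGLS4326-treated mice 1360 to 3150 CPM (median 2260), the lowest treated value being that of mouse 9 and the next lowest 1680 CPM. The 12 PBS-treated sums all lay above the 5 wild-type sums, while those with PBS and RGLS4326 overlapped. Between PBS and wild type 34 members rose, 2 fell (Ogn and Aspn) and 7 did not pass an adjusted p under 0.05 (edgeR quasi-likelihood test, Benjamini-Hochberg). That is 83.7% of the members in either direction, beside 74.3% of all genes tested, and for rises alone 34 of 43 members beside 37.7% of all genes and for falls 2 of 43 beside 36.6%. The median log2 fold change was 1.38 over the members and 0.01 over all genes. No wild-type mouse had 10 counts of Fbn2 or Mfap5, and not every one had 10 of Cthrc1 or Ltbp2, so these 4 members met the minimum only with the help of the Pcy/CD1 mice, where they are high, and their rises and rank follow in part from that choice. With the absolute log2 fold change also over 0.5, 33 members rose and 2 fell, beside 42.4% of all genes in either direction, 24.6% for rises and 17.8% for falls.

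In 29 members every PBS-treated mouse read above every wild-type mouse, which held for 20.3% of all genes tested; in 0 members did every PBS-treated mouse read below, beside 21.9% of all genes. Within index series 1 alone 34 members were called higher, beside 21.8% of all genes in that fit, and within series 2 alone 33, beside 23.4%; the third series holds 1 wild-type mouse. Markers of other cell types moved with this difference. Fibroblast and myofibroblast markers summed to 173 to 244 CPM in wild type, 610 to 1280 CPM with PBS and 275 to 1350 CPM with RGLS4326, and 10 of the 12 tested rose with PBS against wild type. Leukocyte markers (10 of 10 higher) summed to 169 to 194 CPM, 332 to 565 CPM and 172 to 624 CPM in the same order, while proximal tubule markers (9 of 9 lower) summed to 52300 to 67000 CPM, 19900 to 40900 CPM and 29600 to 49400 CPM. Much of the fibroblast sum was collagen, itself matrix: with PBS Col1a1, Col1a2 and Col3a1 averaged 159, 227 and 272 CPM, beside 1000 CPM for the sum. Pdgfrb averaged 43.4 CPM in wild type and 78.2 CPM with PBS. Pdgfra and Meox1 did not pass (log2 fold changes of 0.50 and −0.27). The part of these marker lists in the matrix levels was not tested, and in whole kidneys fewer cells of a type and less RNA per cell cannot be told apart.

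Treatment changed fewer members. Between RGLS4326 and PBS 8 members fell and none rose at an adjusted p under 0.05 (edgeR quasi-likelihood test, Benjamini-Hochberg), 18.6% of the members beside 15.8% of all genes tested in either direction and, by direction, 6.66% of all genes for falls and 9.15% for rises. They were Hspg2, Efemp1, Agrn, Thbs1, Ltbp3, Efemp2, Cthrc1 and Megf6. Counting direction alone, 35 of the 43 members had a log2 fold change below 0, and the median was −0.23 over the members and −0.0043 over all genes (−0.18 and −0.0054 without mouse 9). Only Megf6 and Cthrc1 also passed an absolute log2 fold change of 0.5, beside 2.15% of all genes in either direction (1.22% falls and 0.935% rises). In no member did the treated and PBS-treated mice stop overlapping, nor in any other gene tested (0.0%). Fibroblast markers gave 0 calls of 12 in this comparison by the same test and by DESeq2, with 2 at an unadjusted p under 0.05. By the edgeR test 3 of 9 proximal tubule markers rose (1 of 9 without mouse 9) and 3 of 8 collecting duct and distal tubule markers fell. DESeq2 called 6 of 9 and 5 of 8, counted in either direction. The latter list moved both ways, with 5 log2 fold changes below 0 and 3 above. The part of these marker lists in the 8 falls was not tested.

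The count of calls depended on single mice, among the members as over the whole table. Without RGLS4326-treated mouse 9 the count fell from 8 to 4, and it was also 4 without treated mouse 3, 6 or 10, 5 without treated mouse 7 or wild-type mouse 3 or 4, 3 without treated mouse 8 or 13 or PBS-treated mouse 2, 3, 5 or 9, and 1 without PBS-treated mouse 10. Without treated mouse 2, whose summed level was the highest of its group, it was 13. Calls over all genes went from 2402 to 1234 without treated mouse 9, 618 without PBS-treated mouse 10 and 3999 without treated mouse 2, so these shifts do not set the members apart. Within index series 1, 2 and 3 alone 0 members passed by the same test, but neither did any gene of the whole table (0 of 14770, 14731 and 14763 tested), so the 0 does not set the members apart. At an unadjusted p under 0.05 there were 1, 13 and 8 members, beside 1.65%, 16.3% and 21% of all genes in those series. With the index series as a covariate 9 members fell.

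**Figure D2:**
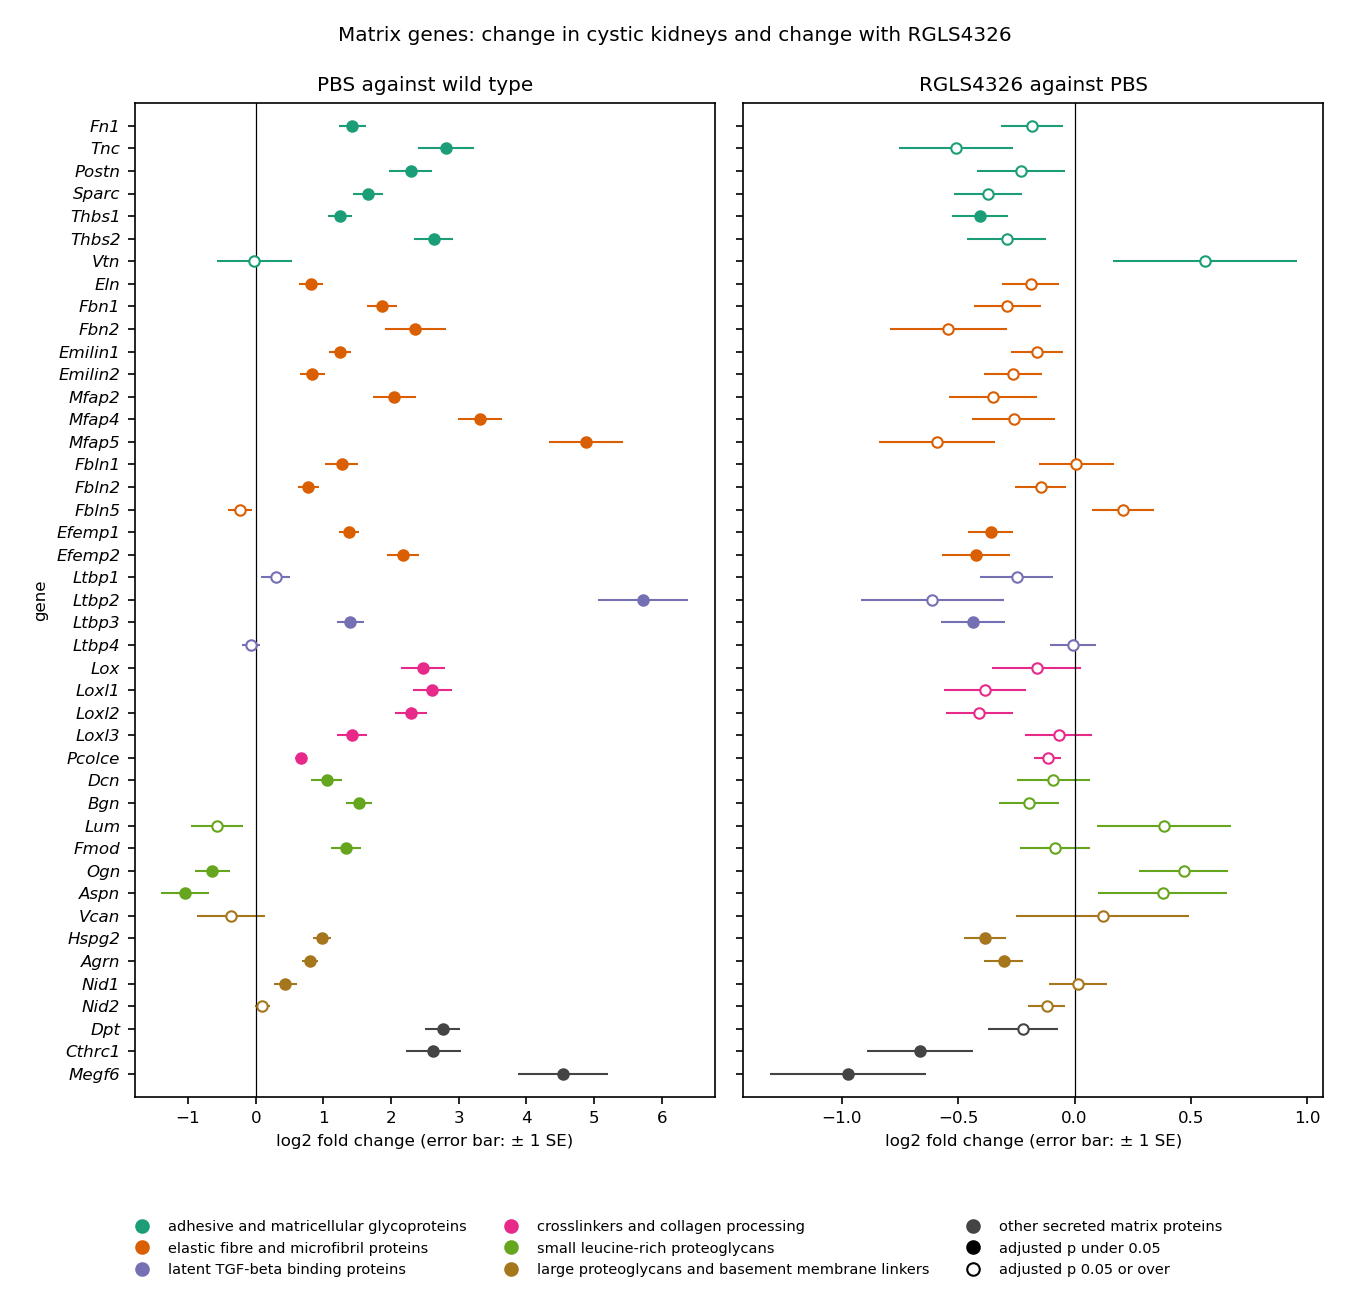
Points give the log2 fold change of each of the 43 matrix genes, coloured by role, with bars of ± 1 SE, for PBS against wild type (left, 12 and 5 mice) and RGLS4326 against PBS (right, 14 and 12 mice); filled points passed an adjusted p under 0.05, and the axes differ in scale. On the left 34 genes are filled to the right of 0 and 2 to the left, and on the right 8 are filled, all to the left of 0.

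Among the 7 adhesive and matricellular glycoproteins, 6 rose in cystic kidneys (Fn1, Tnc, Postn, Sparc, Thbs1 and Thbs2), Vtn did not pass, and 1, Thbs1, fell with RGLS4326. Thbs1 (ENSMUSG00000040152.8, chr2:118111876-118127133 on the plus strand) encodes thrombospondin 1, a platelet and stromal glycoprotein known to activate latent TGF-beta. It read 45.5, 73.4, 38.8, 36.9 and 69.5 CPM in wild-type mice 1 to 5. With PBS the lowest, median and highest mice read 92, 127 and 165 CPM, and with RGLS4326 68.9, 94.7 and 131 CPM. All PBS-treated mice stood above wild type, and 7 of 14 treated mice stood below the lowest PBS-treated mouse, 2 of them within the wild-type range. The log2 fold change was 1.25 (SE 0.18, adjusted p = 3.74e-07, edgeR quasi-likelihood test, Benjamini-Hochberg) against wild type and −0.41 (SE 0.12, adjusted p = 0.0291, same test) with treatment, and it still passed without mouse 9 (−0.38, adjusted p = 0.0493). The treatment fall of Thbs1 passed in 24 of 31 fits that left out 1 mouse (highest adjusted p = 0.0642, same test).

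Sparc (ENSMUSG00000018593.13, chr11:55394500-55423183 on the minus strand), which encodes the collagen-binding glycoprotein osteonectin, had the highest level per kilobase of exon in this role, 29.6 CPM per kb in wild type and 93.9 with PBS. By mouse it read 90.8, 79.6, 149, 141 and 102 CPM in wild type, 243, 369 and 454 CPM (lowest, median, highest) with PBS and 136, 284 and 443 CPM with RGLS4326. The PBS-treated and wild-type mice did not overlap, and treated mouse 9 was the only treated mouse inside the wild-type range. Sparc rose by a log2 fold change of 1.66 (SE 0.22, adjusted p = 1.27e-07, edgeR quasi-likelihood test, Benjamini-Hochberg), and its treatment value of −0.37 (SE 0.15) missed the threshold (adjusted p = 0.0723, same test), or −0.31 without mouse 9.

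Tnc (ENSMUSG00000028364.15, chr4:63959785-64047015 on the minus strand) encodes tenascin-C, a large hexameric glycoprotein of remodelling tissue. Wild-type mice varied, at 4.07, 19.1, 3.37, 4.12 and 11.9 CPM, while PBS-treated mice read 25.7, 66.5 and 89.1 CPM (lowest, median, highest) and treated mice 13.1, 41.8 and 93.4 CPM. Every PBS-treated mouse was above every wild-type mouse, and 13 of 14 treated mice were. The disease log2 fold change was 2.81 (SE 0.41, adjusted p = 5.87e-07, edgeR quasi-likelihood test, Benjamini-Hochberg), one of the 6 largest among the members, and treatment gave −0.51 (SE 0.24, adjusted p = 0.128, same test), past no threshold, or −0.43 without mouse 9.

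Group means ± SD, over 5 wild-type, 12 PBS-treated and 14 RGLS4326-treated mice in this order here and in later paragraphs, were 51.1 ± 12.7, 138 ± 30.7 and 121 ± 30.4 CPM for Fn1 (fibronectin, the main adhesive protein of provisional matrix). Postn (periostin, a fibroblast product that binds collagen) averaged 1.78 ± 0.302, 8.7 ± 3.66 and 7.42 ± 2.26 CPM, and Thbs2 4.73 ± 0.754, 29.3 ± 7.8 and 23.9 ± 7.88 CPM. These 3 genes rose in disease by log2 fold changes of 1.43, 2.29 and 2.63, and every treated mouse, mouse 9 included, still read above the highest wild-type mouse. Thbs2, with both GCACTTT matches printed above, had a treatment log2 fold change of −0.29 (SE 0.17, adjusted p = 0.211, edgeR quasi-likelihood test, Benjamini-Hochberg), or −0.21 without mouse 9. Vtn encodes vitronectin, a plasma adhesive protein made mainly by liver, and was scattered in every group, at 2.36 ± 2.37, 2.33 ± 1.5 and 3.44 ± 3.1 CPM. Its highest treated level, 12.7 CPM, was that of mouse 9, in which the 9 listed liver genes also summed highest among all kidneys, at 720 CPM beside 96.8 CPM in the lowest kidney. The part of liver transcripts in Vtn was not tested.

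Of the 13 elastic fibre and microfibril genes, 12 rose in cystic kidneys, Fbln5 did not pass, and Efemp1 and Efemp2 fell with RGLS4326. The median log2 fold change of the role was 1.38 in disease and −0.27 with treatment. Efemp1 (ENSMUSG00000020467.15, chr11:28853204-28926743 on the plus strand) encodes fibulin-3, a glycoprotein of basement membranes and elastic tissue, and had the highest level per kilobase of exon in this role with PBS, 20.9 CPM per kb. It read 18.1, 19.3, 14.8, 12.7 and 16.8 CPM in wild type. PBS-treated mice spanned 32.3 to 52.5 CPM with a median of 43.7, and treated mice 18.1 to 42.7 CPM with a median of 34.6. All 14 treated mice lay below the PBS median and 6 lay below the lowest PBS-treated mouse, while 13 stayed above wild type. The log2 fold change was 1.38 (SE 0.14, adjusted p = 6.62e-09, edgeR quasi-likelihood test, Benjamini-Hochberg) in disease and −0.36 (SE 0.097, adjusted p = 0.021, same test) with treatment, and −0.31 without mouse 9 (adjusted p = 0.0252).

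Efemp2 (ENSMUSG00000024909.15, chr19:5473954-5482517 on the plus strand) encodes fibulin-4, which brings lysyl oxidase to tropoelastin. Wild-type mice read 5.96, 7.9, 5.62, 6.05 and 5.72 CPM. PBS-treated mice read 17.8, 30.3 and 38.5 CPM (lowest, median, highest), and RGLS4326-treated mice 8.23, 21.3 and 36.3 CPM. Neither Pcy/CD1 group overlapped wild type, and 13 of 14 treated mice lay below the PBS median. The rise was 2.18 on the log2 scale (SE 0.23, adjusted p = 8.48e-09, edgeR quasi-likelihood test, Benjamini-Hochberg). The treatment value was −0.42 (SE 0.15, adjusted p = 0.0459, same test), and without mouse 9 it was −0.36 and no longer passed (adjusted p = 0.0622). An exon of Efemp2 overlaps one of Mus81 on the opposite strand, and the strand setting of the counting is not given in the sources used here.

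Mfap5 (ENSMUSG00000030116.14, chr6:122505845-122529290 on the plus strand) and Mfap4 (ENSMUSG00000042436.12, chr11:61485431-61488900 on the plus strand), which encode small glycoproteins bound to fibrillin microfibrils, both rose in disease. Mfap5 was nearly absent from wild-type kidneys, at 0.118, 0.238, 0.414, 0.242 and 0.241 CPM, which rest on 21 counts in all, 2 to 7 per mouse. With PBS it read 2.78, 6.97 and 11.4 CPM (lowest, median, highest) and with RGLS4326 0.511, 4.46 and 11 CPM. Every Pcy/CD1 mouse of either group lay above every wild-type mouse, the treated minimum being mouse 9. The fitted log2 fold change in disease was 4.88 (SE 0.55, adjusted p = 1.57e-08, edgeR quasi-likelihood test, Benjamini-Hochberg) and that of treatment −0.59 (SE 0.25, adjusted p = 0.0878, same test), which did not pass, or −0.49 without mouse 9.

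Mfap4 read 0.885, 1.25, 1.72, 1.39 and 1.2 CPM in wild type, 6.49, 13.4 and 17.4 CPM (lowest, median, highest) with PBS and 2.97, 10.1 and 17.2 CPM with RGLS4326. The Pcy/CD1 mice again all stood above wild type, 9.95-fold in the fit with PBS (log2 fold change 3.31, SE 0.33, adjusted p = 2.90e-09, edgeR quasi-likelihood test, Benjamini-Hochberg). With treatment the log2 fold change was −0.26 (SE 0.18, adjusted p = 0.283, same test), or −0.18 without mouse 9. Fbln5 (ENSMUSG00000021186.9, chr12:101746565-101819055 on the minus strand) encodes fibulin-5, an integrin ligand needed for elastic fibre assembly, and was the exception. It read 57.4, 48.1, 76.7, 79.6 and 60.7 CPM in wild type, 34.6 to 85.2 CPM (median 56) with PBS and 41.3 to 78.4 CPM (median 61.9) with RGLS4326. The 3 groups overlapped throughout, with log2 fold changes of −0.24 (SE 0.18, adjusted p = 0.226) and 0.21 (SE 0.13, adjusted p = 0.252, same test), or 0.19 without mouse 9.

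The other elastic fibre genes rose by log2 fold changes between 0.78 and 2.36 and did not pass with treatment. The smallest rise, that of Fbln2, was lost within index series 2 alone (log2 fold change 0.39, adjusted p = 0.132, edgeR quasi-likelihood test). Eln (elastin itself) averaged 7.78 ± 1.44, 13.7 ± 2.47 and 12 ± 3.15 CPM and Fbn1 (fibrillin-1, the backbone of microfibrils) 10.9 ± 2.41, 39.6 ± 6.86 and 32.4 ± 9.76 CPM. Fbn2, the fibrillin typical of developing tissue, stayed scarce, at 0.239 ± 0.182, 1.24 ± 0.531 and 0.855 ± 0.356 CPM, and its wild-type level rests on 20 counts over 5 mice, 1 to 9 per mouse. Emilin1 and Emilin2 (elastin-interface proteins) rose by 1.24 and 0.84, Mfap2 (a microfibril glycoprotein, with 92 counts over the wild-type mice) by 2.05, and Fbln1 and Fbln2 (fibulins of basement membrane and stroma) by 1.27 and 0.78, all on the log2 scale with adjusted p of 1.63e-04 or lower (same test). In the treatment comparison Fbln1 had means of 10.4 and 10.4 CPM with PBS and RGLS4326 and a log2 fold change of 0.0075 (SE 0.16).

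**Figure D3:**
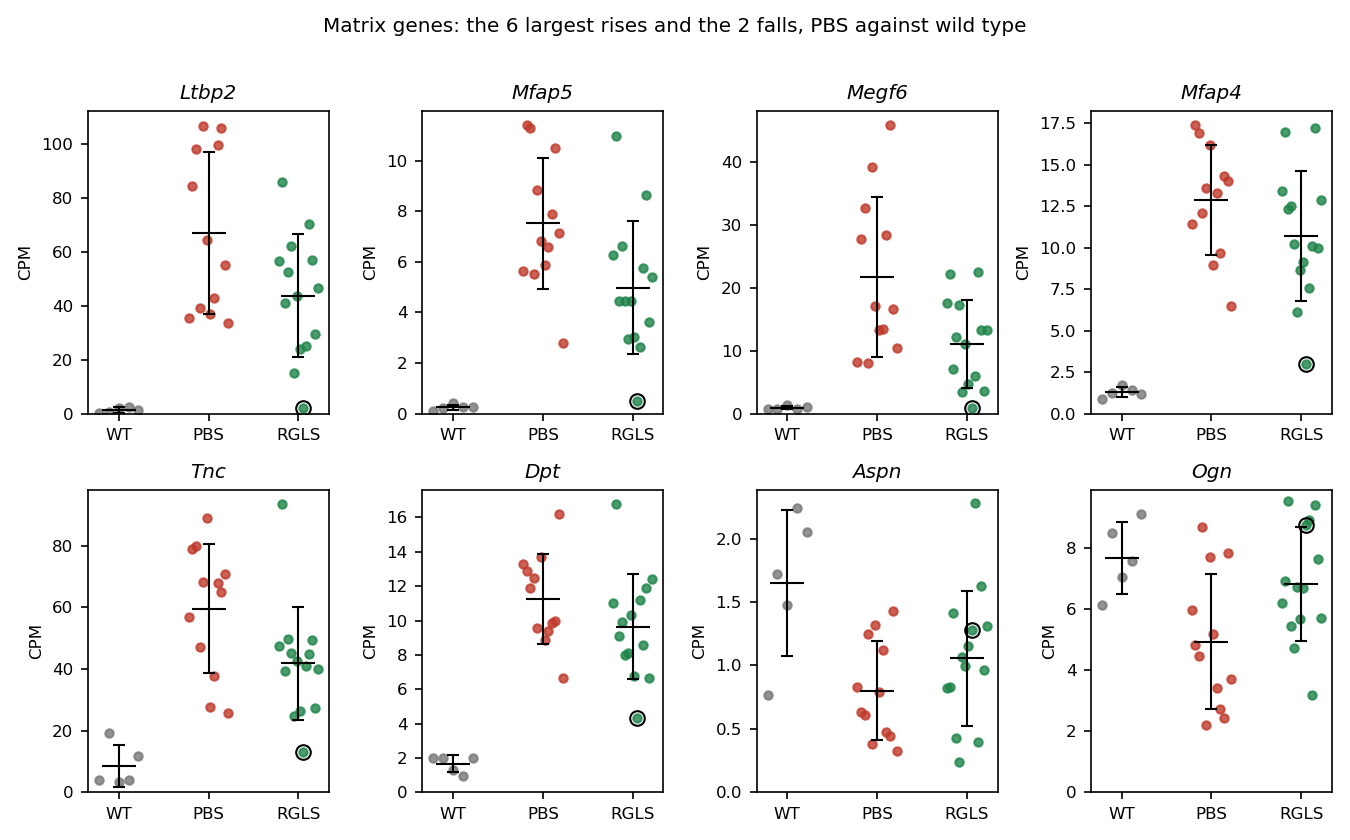
Each panel gives the CPM of 1 gene in every mouse (wild type n = 5, PBS n = 12, RGLS4326 n = 14), with the mean and SD in black and RGLS4326-treated mouse 9 circled; all axes start at 0. In Ltbp2, Mfap5, Megf6, Mfap4, Tnc and Dpt every PBS-treated mouse lies above wild type, whereas Aspn and Ogn are lower with PBS and overlap.

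The 4 latent TGF-beta binding proteins split: Ltbp2 and Ltbp3 rose in cystic kidneys, and Ltbp1 and Ltbp4 did not pass. Ltbp2 (ENSMUSG00000002020.15, chr12:84783212-84876532 on the minus strand), which binds fibrillin and, unlike its relatives, does not bind latent TGF-beta, had the highest disease log2 fold change of the 43 members, among which its place depends in part on the minimum of counts. It read 0.177, 0.475, 2.07, 2.42 and 1.2 CPM in wild-type mice, which rest on 106 counts. PBS-treated mice read 33.5, 59.9 and 107 CPM (lowest, median, highest) and treated mice 2.04, 45.1 and 86.2 CPM. All 12 PBS-treated and 13 treated mice lay above wild type, and mouse 9 lay within it. The fit gave a 52.7-fold rise (log2 fold change 5.72, SE 0.67, adjusted p = 2.55e-08, edgeR quasi-likelihood test, Benjamini-Hochberg), and the treatment log2 fold change was −0.61 (SE 0.31, adjusted p = 0.143, same test), or −0.51 without mouse 9.

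Ltbp3 (ENSMUSG00000024940.11, chr19:5740904-5758532 on the plus strand), which secretes and stores latent TGF-beta, was the member of this role with the highest level per kilobase of exon (12.6 CPM per kb with PBS). By mouse it read 37, 42.4, 45.4, 44.7 and 47.6 CPM in wild type. With PBS it ran from 77.2 to 167 CPM (median 102) and with RGLS4326 from 44.8 to 125 CPM (median 88.4). The wild-type and PBS-treated mice were separate, 12 of 14 treated mice were below the PBS median, and mouse 9 alone reached the wild-type range. Ltbp3 rose by 1.40 (SE 0.20, adjusted p = 6.18e-07, edgeR quasi-likelihood test, Benjamini-Hochberg) and fell with treatment by a log2 fold change of −0.44 (SE 0.14, adjusted p = 0.0368, same test). Without mouse 9 the treatment value was −0.38 (adjusted p = 0.0575), past no threshold. Ltbp1 averaged 16.3 ± 5.23, 19.9 ± 6.42 and 16.8 ± 4.5 CPM and Ltbp4 40.6 ± 5.86, 38.7 ± 6.78 and 38.6 ± 7.22 CPM (means ± SD), with disease log2 fold changes of 0.30 (SE 0.22) and −0.068 (SE 0.13) that did not pass.

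All 5 crosslinkers and collagen processing genes rose in cystic kidneys and 0 passed with RGLS4326 by edgeR's quasi-likelihood test (2 at an unadjusted p under 0.05, and 1, Loxl2, called by DESeq2). All 5 had treatment log2 fold changes below 0 (−0.41 to −0.069, or −0.35 to −0.0046 without mouse 9). Pcolce (ENSMUSG00000029718.14, chr5:137605103-137613784 on the minus strand) encodes the enhancer of procollagen C-proteinase, had the highest level per kilobase of exon of the role (29.2 CPM per kb with PBS) and was the steadiest member of all, with a coefficient of variation of 4.52% in wild type. It read 67.2, 72, 73.8, 72.3 and 66.8 CPM in wild type, 96.4, 109 and 126 CPM (lowest, median, highest) with PBS and 75.8, 105 and 126 CPM with RGLS4326. Neither Pcy/CD1 group overlapped wild type. The disease log2 fold change was 0.66 (SE 0.082, adjusted p = 5.15e-08, edgeR quasi-likelihood test, Benjamini-Hochberg) and that of treatment −0.12 (SE 0.058, adjusted p = 0.147, same test), or −0.085 without mouse 9.

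The lysyl oxidases, copper enzymes that oxidise lysines of collagen and elastin so that crosslinks form, rose further. Lox averaged 2.02 ± 1.18, 11.2 ± 2.43 and 10 ± 3.56 CPM (means ± SD), Loxl1 (the form tied to elastic fibres) 8.55 ± 1.89, 52 ± 14.9 and 39.8 ± 13.1 CPM, Loxl2 (which also acts on basement membrane collagen) 5.6 ± 1.15, 27.5 ± 6 and 20.7 ± 6.57 CPM and Loxl3 3.33 ± 0.975, 8.88 ± 2.24 and 8.47 ± 2.26 CPM. Their disease log2 fold changes were 2.47, 2.61, 2.30 and 1.42, and the 12 PBS-treated mice lay above wild type in all 4 genes. Loxl2 came closest to a treatment call, with a log2 fold change of −0.41 (SE 0.14, adjusted p = 0.0508, edgeR quasi-likelihood test, Benjamini-Hochberg), or −0.35 without mouse 9.

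The 6 small leucine-rich proteoglycans were the one role that moved both ways: Dcn, Bgn and Fmod rose, Ogn and Aspn fell, Lum did not pass, and 0 of 6 passed with RGLS4326 by edgeR's quasi-likelihood test or by DESeq2 (1 at an unadjusted p under 0.05). Bgn (ENSMUSG00000031375.17, chrX:73483602-73495933 on the plus strand) encodes biglycan, which binds collagen and TGF-beta, and had the highest level per kilobase of exon of the role (56.2 CPM per kb with PBS). It read 105, 109, 132, 125 and 123 CPM in wild type. With PBS the lowest, median and highest mice read 215, 347 and 453 CPM, and with RGLS4326 150, 298 and 468 CPM. Every Pcy/CD1 mouse, mouse 9 at 150 CPM included, was above every wild-type mouse. The log2 fold change was 1.53 (SE 0.19, adjusted p = 5.51e-08, edgeR quasi-likelihood test, Benjamini-Hochberg) in disease and −0.20 (SE 0.13, adjusted p = 0.262, same test) with treatment, or −0.14 without mouse 9.

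Ogn (ENSMUSG00000021390.6, chr13:49608046-49624501 on the plus strand) and Aspn (ENSMUSG00000021388.14, chr13:49544443-49567565 on the plus strand) lie close together on chromosome 13 and encode osteoglycin (mimecan) and asporin, a collagen-binding inhibitor of TGF-beta signalling. Ogn read 6.13, 8.49, 7.04, 7.57 and 9.09 CPM in wild type, 2.2, 4.64 and 8.67 CPM (lowest, median, highest) with PBS and 3.2, 6.71 and 9.52 CPM with RGLS4326. The groups overlapped, with 9 of 12 PBS-treated and 5 of 14 treated mice below the lowest wild-type mouse. Ogn fell by a log2 fold change of −0.64 in disease (SE 0.25, adjusted p = 0.0236, edgeR quasi-likelihood test, Benjamini-Hochberg), and with treatment the value was 0.47 (SE 0.19, adjusted p = 0.0795, same test), or 0.44 without mouse 9, past no threshold. It passed as a rise in 2 of 31 fits that left out 1 mouse, without PBS-treated mouse 4 or RGLS4326-treated mouse 11 (lowest adjusted p = 0.0286, same test). The fall of Ogn was lost in a fit of PBS and wild type alone (adjusted p = 0.0521), without wild-type mouse 2 or 5 (adjusted p = 0.0549 and 0.0657) and within index series 1 or 2 alone.

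Aspn, a scarce transcript, read 0.767, 1.72, 1.48, 2.24 and 2.05 CPM in wild type, 0.325, 0.713 and 1.43 CPM (lowest, median, highest) with PBS and 0.24, 1.03 and 2.28 CPM with RGLS4326. Only 6 of 12 PBS-treated mice lay below all wild-type mice, of which mouse 1 was itself low. The log2 fold change was −1.04 (SE 0.35, adjusted p = 0.00962, edgeR quasi-likelihood test, Benjamini-Hochberg), lost within index series 1 or 2 alone, and that of treatment 0.38 (SE 0.28, adjusted p = 0.316, same test), or 0.35 without mouse 9. Aspn exons overlap Cenpp on the opposite strand. Dcn (decorin, a regulator of collagen fibrils) averaged 22.9 ± 2.37, 47.4 ± 16.8 and 44.5 ± 11.1 CPM (means ± SD). Fmod (fibromodulin, which binds the same fibrils) averaged 7.45 ± 3.25, 18.7 ± 2.77 and 17.7 ± 4.47 CPM, and Lum (lumican) 1.93 ± 0.45, 1.31 ± 0.813 and 1.71 ± 0.888 CPM. Against wild type Dcn rose by 1.05 and Fmod by 1.33 on the log2 scale, and Lum, at −0.57 (adjusted p = 0.18, same test), did not pass.

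**Figure D4:**
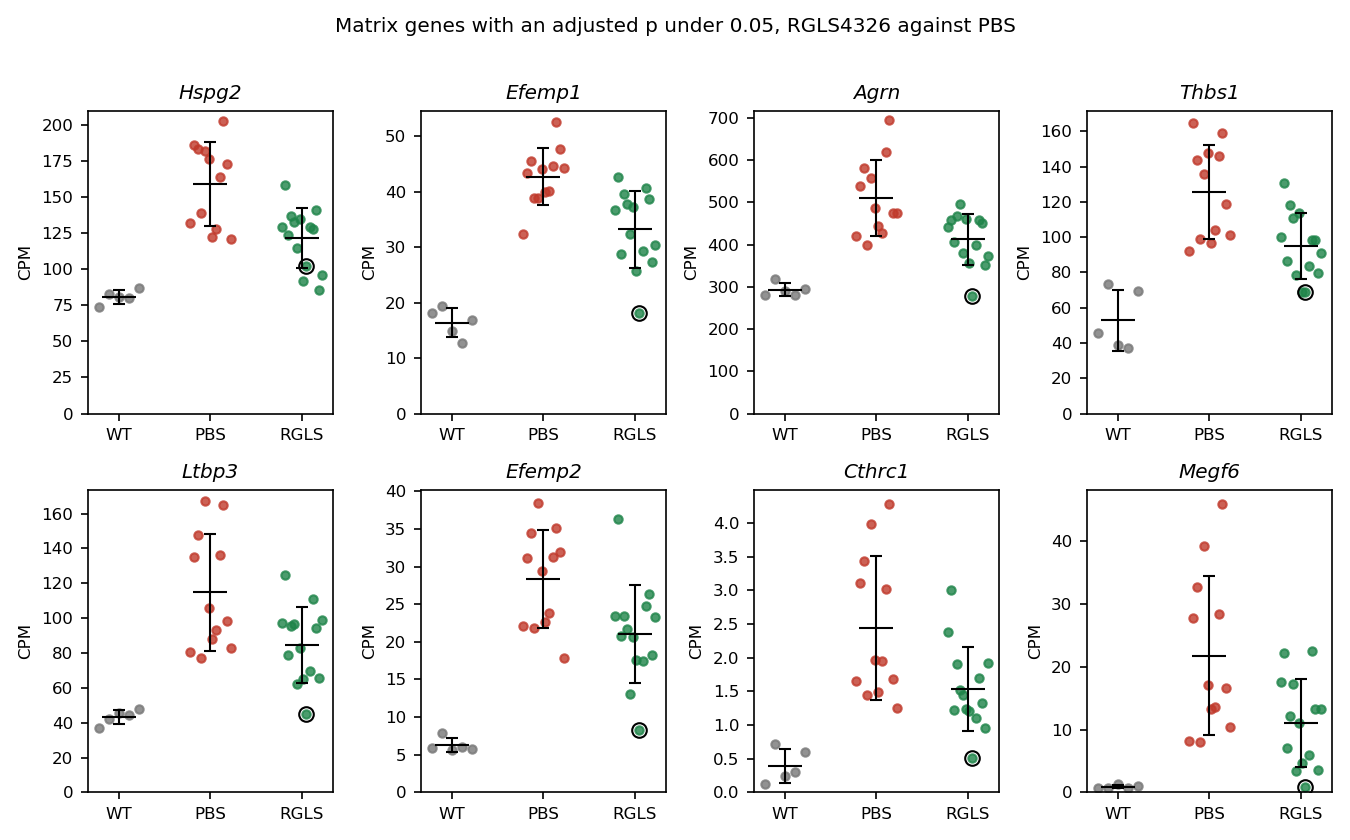
Each panel gives the CPM of 1 of the 8 matrix genes with an adjusted p under 0.05 for RGLS4326 against PBS, in every mouse (wild type n = 5, PBS n = 12, RGLS4326 n = 14), with the mean and SD in black and RGLS4326-treated mouse 9 circled; all axes start at 0. The treated means lie between those of wild type and PBS in all 8 panels, and the treated and PBS-treated mice overlap in each.

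Of the 5 large proteoglycans and basement membrane linkers, Hspg2, Agrn and Nid1 rose in cystic kidneys, Vcan and Nid2 did not pass, and Hspg2 and Agrn fell with RGLS4326. Hspg2 (ENSMUSG00000028763.17, chr4:137468769-137570630 on the plus strand) encodes perlecan, the main heparan sulfate proteoglycan of vascular and tubular basement membranes, and had the smallest treatment p of the 43 members. It read 74, 82.9, 81, 79.8 and 87.2 CPM in wild type. PBS-treated mice read 121, 169 and 203 CPM (lowest, median, highest) and treated mice 85.4, 129 and 158 CPM. All 14 treated mice were below the PBS median and 5 were below every PBS-treated mouse, but 13 stayed above wild type. The log2 fold change was 0.97 (SE 0.13, adjusted p = 1.87e-07, edgeR quasi-likelihood test, Benjamini-Hochberg) in disease and −0.39 (SE 0.092, adjusted p = 0.0125, same test) with treatment. Hspg2 kept its call without mouse 9 (−0.37, adjusted p = 0.0203) and when any other single mouse was left out.

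Agrn (ENSMUSG00000041936.18, chr4:156165290-156197488 on the minus strand) encodes agrin, the heparan sulfate proteoglycan of the glomerular basement membrane, and had the highest level per kilobase of exon of this role (31.6 CPM per kb in wild type and 54.9 with PBS). Wild-type mice read 280, 318, 291, 281 and 295 CPM. With PBS it spanned 398 to 695 CPM (median 481) and with RGLS4326 278 to 496 CPM (median 423). The PBS-treated and wild-type mice were separate, 13 of 14 treated mice were below the PBS median, and mouse 9 was below every wild-type mouse. Agrn rose by 0.80 (SE 0.12, adjusted p = 6.99e-07, edgeR quasi-likelihood test, Benjamini-Hochberg) and its treatment log2 fold change was −0.30 (SE 0.083, adjusted p = 0.0222, same test), with −0.27 without mouse 9 (adjusted p = 0.0331). Nid1 (nidogen-1, which links laminin to collagen IV) averaged 37.4 ± 8.69, 50.7 ± 13.1 and 51.3 ± 11.1 CPM, and its relative Nid2 21.3 ± 2.43, 22.8 ± 3.5 and 21 ± 2.96 CPM (means ± SD). The rise of Nid1, 0.44 (adjusted p = 0.025, same test), was the smallest among the called members and was lost without wild-type mouse 1, 2 or 5 (adjusted p = 0.0602, 0.096 and 0.0571) and within index series 2 alone, where the log2 fold change was 0.09. Vcan (versican, a large chondroitin sulfate proteoglycan) split the wild-type mice, at 0.649, 18.1, 1.01, 0.908 and 16.3 CPM, and averaged 5.71 ± 2.84 CPM with PBS and 6.26 ± 3.22 CPM with RGLS4326.

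The remaining secreted matrix proteins, Dpt, Cthrc1 and Megf6, all rose in cystic kidneys, and Cthrc1 and Megf6 were the 2 members with the largest falls after treatment. Megf6 (ENSMUSG00000057751.14, chr4:154170730-154275713 on the plus strand) read 0.767, 0.772, 1.36, 0.727 and 1.02 CPM in wild type. PBS-treated mice spread widely, at 8.08, 16.9 and 45.8 CPM (lowest, median, highest), and so did treated mice, at 0.818, 11.5 and 22.5 CPM. Every PBS-treated mouse was above wild type, 6 of 14 treated mice were below the lowest PBS-treated mouse, and mouse 9 was inside the wild-type range. The disease fit gave a 23.3-fold rise (log2 fold change 4.54, SE 0.67, adjusted p = 7.06e-07, edgeR quasi-likelihood test, Benjamini-Hochberg). With treatment the log2 fold change was −0.97 (SE 0.34, adjusted p = 0.0468, same test), a fall in a transcript that carries the GCACTTT match printed above, and without mouse 9 it was −0.87 (adjusted p = 0.0609).

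Cthrc1 (ENSMUSG00000054196.7, chr15:39076932-39087121 on the plus strand) encodes a secreted protein with a short collagen triple helix, known from injured arteries. The transcript was scarce, at 0.118, 0.713, 0.237, 0.303 and 0.602 CPM in wild type, which rest on 33 counts. With PBS it read 1.25, 1.95 and 4.28 CPM (lowest, median, highest) and with RGLS4326 0.511, 1.38 and 3.01 CPM. The PBS-treated mice were all above wild type, and 6 of 14 treated mice were below the lowest of them. It rose by 2.62 (SE 0.41, adjusted p = 1.47e-06, edgeR quasi-likelihood test, Benjamini-Hochberg) and fell with treatment by a log2 fold change of −0.67 (SE 0.23, adjusted p = 0.0466, same test), or −0.59 without mouse 9 (adjusted p = 0.0704).

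Dpt (ENSMUSG00000026574.5, chr1:164796644-164824266 on the plus strand) encodes dermatopontin, which binds decorin and speeds collagen fibril formation, and had the highest level per kilobase of exon of these 3 genes (6.52 CPM per kb with PBS). It read 2.01, 2.02, 1.3, 0.969 and 1.99 CPM in wild type, 6.68, 11 and 16.2 CPM (lowest, median, highest) with PBS and 4.35, 9.51 and 16.8 CPM with RGLS4326. All Pcy/CD1 mice of both groups were above wild type. The disease log2 fold change was 2.76 (SE 0.26, adjusted p = 1.88e-09, edgeR quasi-likelihood test, Benjamini-Hochberg), and treatment gave −0.22 (SE 0.15, adjusted p = 0.286, same test), or −0.16 without mouse 9.

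**Figure D5:**
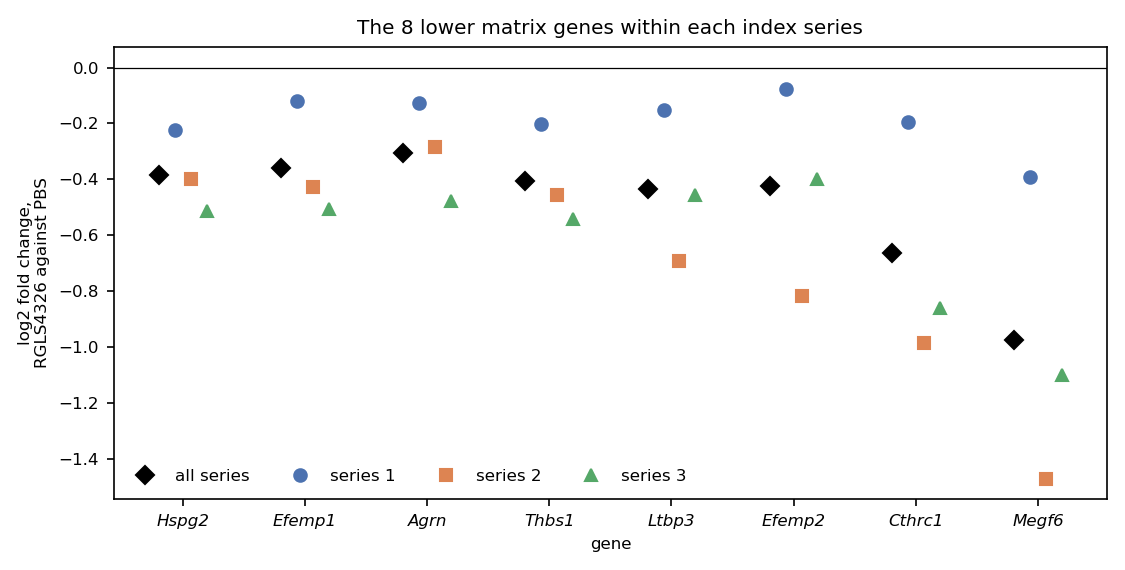
The vertical axis gives the log2 fold change of RGLS4326 against PBS for the 8 matrix genes that fell, over all mice (diamonds) and within each of the 3 index series (circles, squares and triangles). All 8 genes lie below 0, between −0.39 and −0.076 in series 1, −1.47 and −0.28 in series 2 and −1.10 and −0.40 in series 3, and 0 of these values, as of those of all genes, passed within a series. The genes were chosen for their fall over the same mice, so the sign within a series is a description.

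Matrix genes remained higher in treated kidneys than in wild type. Between RGLS4326 and wild type 34 members were higher and 0 lower at an adjusted p under 0.05 (edgeR quasi-likelihood test, Benjamini-Hochberg), beside 64.9% of all genes tested in either direction, 32.5% for rises and 32.4% for falls, and the median log2 fold change was 1.25 over the members and 0.0037 over all genes (34 calls and a median of 1.30 without mouse 9). With the absolute log2 fold change also over 0.5 there were 32, beside 31.5% of all genes in either direction, 20.3% for rises and 11.3% for falls. All 34 members that rose with PBS were still higher with RGLS4326, the 8 that treatment lowered among them, and 32 of the 34 had a lower mean with RGLS4326 than with PBS. The 34 were picked for being high in these same PBS-treated mice, which by itself favours a lower treated mean, so the 32 is a description. The comparisons share mice, so these values are set side by side and were not tested against each other. Hspg2 stood at 1.97-fold wild type with PBS and 1.5-fold with RGLS4326, Efemp1 at 2.61-fold and 2.03-fold, Ltbp3 at 2.64-fold and 1.95-fold, and Megf6 at 23.3-fold and 11.9-fold. Ogn and Aspn, lower with PBS, stood at log2 fold changes of −0.17 and −0.66 from wild type with RGLS4326 and did not pass (adjusted p = 0.559 and 0.0933, same test).

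In 12 members every treated mouse read above every wild-type mouse (Fn1, Postn, Thbs2, Mfap4, Mfap5, Fbln1, Efemp2, Loxl2, Pcolce, Dcn, Bgn and Dpt), which held for 5.04% of all genes, and in 0 members below, beside 9.75%. Mouse 9 lay in the wild-type range for 25 of the 43 members, above it for 14 of the 34 that rose in disease, and below it for 2 of those. Within index series 2, which holds mouse 9, 1 member passed against wild type, beside 0.411% of all genes, and without it 31 were higher and 2 lower, beside 20.5% and 19.3%. The median coefficient of variation of single members was 23.3% in wild type, 25.8% with PBS and 28.0% with RGLS4326, whereas their summed level spread more in Pcy/CD1 mice, with means ± SD of 1170 ± 65.8, 2660 ± 444 and 2200 ± 438 CPM (n = 5, 12 and 14).

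Further matrix genes, taken from lists of glycoproteins, proteoglycans and processing enzymes outside the 43, moved in both directions. Of 83 listed, 63 were tested; 34 rose and 15 fell in cystic kidneys, 2 rose and 4 fell with RGLS4326, and 31 were higher and 15 lower than wild type after treatment (same test). That is 77.8% of those tested in disease and 9.52% with treatment, beside 74.3% and 15.8% of all genes. Without mouse 9 there were 3 treatment calls, Npnt, Spock2 and Frem2, all falls. Their median log2 fold change was 0.27 in disease and −0.10 with treatment, beside 1.38 and −0.23 for the members. Among them Npnt (nephronectin, an integrin ligand of tubular basement membrane) stood at means of 109, 196 and 139 CPM in wild type, PBS and RGLS4326 and fell with treatment by a log2 fold change of −0.49 (SE 0.11, adjusted p = 0.0087, edgeR quasi-likelihood test, Benjamini-Hochberg). Spock2 (testican-2, a proteoglycan) fell by −0.69 (SE 0.13, adjusted p = 0.00387, same test), from a mean of 3.78 CPM with PBS to 2.33 CPM. Frem2 and Fras1, basement membrane proteins of one complex, had treatment log2 fold changes of −0.32 and −0.19 and also passed, but Fras1 not without mouse 9 (−0.17, adjusted p = 0.0621, same test). Hapln1, a link protein of hyaluronan, and Tinag, a tubular basement membrane antigen named here after its values were seen, had values above 0 with treatment after a fall in disease (log2 fold changes of −3.88 and −0.89 in disease and 1.82 and 0.24 with treatment). Both treatment calls rested on single mice. Mouse 9 had the highest treated level of each, 8.95 CPM of Hapln1 beside 1.32 CPM in the next mouse and 140 CPM of Tinag beside 115 CPM, and without it the log2 fold changes were 0.92 and 0.20 (adjusted p = 0.0709 and 0.0747, same test). Hapln1 was also lost without PBS-treated mouse 5, 9 or 10, and Tinag passed in 18 of 31 fits that left out 1 mouse. Of the 18 other crosslinking and collagen processing enzymes, 9 rose and 5 fell in disease and 0 passed with treatment by edgeR's quasi-likelihood test or DESeq2, with 4 at an unadjusted p under 0.05.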

How the data were processed

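Polyadenylated RNA of whole kidneys was sequenced as stranded paired reads. Per the labels and the study's methods, the authors trimmed reads with Trim Galore, checked them with FastQC 0.11.2, aligned them to GRCm38 with STAR, processed alignments with SAMtools 1.1 and Picard 1.119 and deposited raw counts of uniquely mapped reads per gene from HTSeq 0.6.1. Whether HTSeq counted by strand is not given in the sources used here. HTSeq's own rows, such as reads on no feature (8.39 to 10.1%), entered neither library sizes nor tests.

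The deposited counts were filtered with filterByExpr, leaving 15185 of 23509 genes, and TMM-scaled. edgeR 4.0.16 (R 4.3.3) fitted 1 coefficient per group over all 31 mice, as groups share an estimate of spread, and its quasi-likelihood test was adjusted by Benjamini-Hochberg over all genes tested, with a threshold of 0.05 and a second threshold of 0.5 on the absolute log2 fold change. Each SE was derived from the fold change and F, so it is approximate. The fit was tested on simulated data (RGLS4326 against PBS, 15085 genes). There 92 to 96% of genes with a true log2 fold change of 1 or −1 and 17 of 14887 unchanged genes were called. Detection of log2 fold changes smaller in size than 1 was not tested. The median treatment value of the members was −0.23. CPM per kb used exon lengths of GENCODE vM21. Alternatives were DESeq2 1.42.0, its size factors, other filters, fits of the groups compared alone, the index series, a replicate block and leaving out each mouse. Same-numbered PBS and RGLS4326 mice deviated with a mean correlation of −0.085 (−0.47 to 0.51, 12 pairs), so numbers were not taken to pair mice.

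The genes, lists and tests were chosen with earlier results of these data known. Values by mouse were given for each matrix gene called with RGLS4326, the 6 largest rises and up to 4 largest falls in disease and the gene with the highest mean CPM of each role. Genes outside the set were named from lists, at most 3 per list by smallest p. Fibroblast and adipocyte markers were also named where they described a summed level.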

Additional observations from a re-analysis of the deposited data

Results flagged for a closer look

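Among 43 matrix genes tested for a mouse far from its group in the 5 wild-type kidneys, 2 had one, where chance gives about 1 in 20. Vtn, the plasma adhesive protein vitronectin, read 6.56 CPM in wild-type mouse 5, with the nearest other mouse at 1.66 and the farthest at 0.832 CPM, and the gap was 0.856 of the range. Efemp2, fibulin-4 of the elastic fibre, read 7.9 CPM in wild-type mouse 2, with the nearest at 6.05 and the farthest at 5.62 CPM, and the gap was 0.809 of the range. That value still lay below all 26 Pcy/CD1 mice, whose lowest was 8.23 CPM.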

How the results depend on the processing

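The disease difference held in every alternative run: 33 to 36 of the 43 matrix genes were called for PBS against wild type, against 36 in the report, also when any 1 mouse was left out (34 to 36). For RGLS4326 against wild type the count stayed at 33 to 35 of 43 when any 1 mouse was left out, and was 1 in index series 2 alone, which holds mouse 9. Nid1 reversed there, to a log2 fold change of −0.0489, and to −0.0566 in the same series with mouse 9 left out, an alternative chosen after seeing the data; the cause was not tested.

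The 8 falls with RGLS4326 were less firm. The count was 8 with the other filter or with DESeq2 size factors and 9 with DESeq2 or the index series as a covariate. It was 5 with no filter on low counts, 4 with only the PBS and RGLS4326 groups in the fit, 2 with the size threshold added, 0 in series 1, 2 or 3 alone and 0 in series 2 with mouse 9 left out, where fewer mice were tested and 0 of all genes passed. Leaving out single mice gave 1 to 13, of which 1 was a rise, that of Ogn, without PBS mouse 4 or RGLS4326 mouse 11. With a replicate block it was 1 (Hspg2), but the numbers share only a name, and 2 of 12 pairs correlated best with their own number. The fall of Ogn in disease was also lost with that block (adjusted p = 0.0684, edgeR). For the 63 related matrix genes the 6 calls became 3 with the replicate block, 2 with the size threshold, 0 in series 1, 2 or 3 alone, 0 in series 2 with mouse 9 left out, and 3 to 12 without single mice. Against wild type their count was 0 in series 2 alone, and 41 to 48 without single mice. Over all genes tested, the 2402 calls for RGLS4326 against PBS became 1480 with only those groups, 303 with the replicate block, 0 in series 1, 2 or 3 alone and 618 to 3999 without single mice. Depth limits Mfap5, Cthrc1, Fbn2, Megf6, Mfap2 and Ltbp2 in wild type, which rest on 20 to 106 counts in all.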

Other observations

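Other gene lists of the kidney were read against the 74.3% of all genes called between PBS and wild type. All 6 tubular injury markers rose in PBS-treated Pcy/CD1 kidneys, with summed levels of 189 to 385 CPM in wild type and 799 to 2780 CPM with PBS, and 0 of 6 passed with RGLS4326 by edgeR's quasi-likelihood test or by DESeq2, with 1 at an unadjusted p under 0.05 (335 to 1720 CPM, median log2 fold change −0.46). Of 8 collecting duct and distal tubule markers, 5 rose and 2 fell in disease (87.5%), and of 8 podocyte and mesangial markers 4 rose and 1 fell (62.5%), of which 1 fell with RGLS4326 (0 without mouse 9). Of 7 endothelial markers 1 rose and 3 fell in disease (57.1%), with sums of 248 to 358 CPM in wild type, 180 to 332 CPM with PBS and 172 to 390 CPM with RGLS4326. Of 9 liver genes 2 rose and 4 fell in disease (66.7%), and 3 rose with RGLS4326 (1 without mouse 9, in which these genes summed highest). The shares of podocyte, endothelial and liver genes were below that of all genes. The 6 adipocyte markers summed to 23.4 to 34.3 CPM in wild type, 24.9 to 127 CPM with PBS and 23.8 to 112 CPM with RGLS4326. Of the 6, 4 were higher with RGLS4326 than in wild type (3 without mouse 9), beside 32.5% of all genes. In wild type Fabp4 averaged 29.1 CPM, nearly all of the mean sum of 30 CPM. The other adipocyte markers averaged 0.0478 to 0.3 CPM there, so they were tested with the help of the Pcy/CD1 mice, where they are higher. Wild-type mice 3 and 4 were the closest pair of libraries, with a chi-square of 2.69 per gene, above sampling noise, and were counted separately.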
